A study of Homo sapiens with 4 samples.

Results

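ANKRD18A (ENSG00000180071), a gene on the minus strand of chromosome 9, was followed through lists of peaks. They came from libraries of RNA crosslinked to the protein ZFR (eCLIP) and from input libraries. The gene's peaks were taken from all of these lists. The members were all peaks listed under that identifier, 203 of 595484 peaks in the 4 libraries, and ANKRD18A is 1 of 17764 gene identifiers in them. All 203 were minus-strand peaks of chromosome 9, the first starting at 38540626 and the last ending at 38620424 (hg19, counted from 1), a span of 79799 bases. The gene was chosen from these data for its many peaks that both eCLIP libraries and no input held, so every difference between eCLIP and input below is a description, with no test.

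The series held 2 eCLIP libraries, in which RNA bound to FLAG-tagged ZFR was immunoprecipitated after ultraviolet crosslinking, and 2 size-matched inputs, made from the same size range without that step. All 4 came from HEK-293 Flp-In TREx cells, a human embryonic kidney line, with FLAG-ZFR integrated at the FRT site. The cells were a polyclonal population, in which 1 µg/mL doxycycline switched on the transgene for 48 to 72 h before the cells were crosslinked at 400 mJ/cm2. The inputs carried the transgene and the induction too, so no library here came from cells without tagged ZFR. Whether same-group libraries stem from different cultures is not stated. The lists held 479308 and 41904 peaks for eCLIP against 63068 and 11204 for input, with 3075352 and 229647 reads in peaks for eCLIP against 249245 and 102084 for input. The sequencing depth is unknown. The files pair no gene identifier with a name, so the identity of the cells was not checked against marker genes, and the name ANKRD18A is the one given for this identifier when it was chosen.

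ZFR is a zinc finger protein with a DZF domain, and it binds double-stranded RNA and takes part in alternative splicing. Splicing proteins meet transcripts in the nucleus before introns are removed, so their eCLIP peaks often fall in introns. ANKRD18A encodes a protein with ankyrin repeats, short helical units that bind other proteins. It lies near the centromere of chromosome 9, a region known for large duplicated segments. In such a region a short read can match several places, and how the aligner placed such reads is not given in the sources used here.

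RefSeq lists 6 genes and pseudogenes named ANKRD18, 3 of them on chromosome 9, and 2 of the 6, ANKRD18A and ANKRD18B, code for proteins. The starts of these 2 genes are shown because they let a reader see how alike 2 copies of the family are at that place. They do not show how alike the copies are farther downstream, where most of the peaks lie. Each runs from 250 bases before to 50 bases after the gene's start, from RefSeq on build GRCh38.p14, 5′ to 3′, and capitals mark the stretches that lie within a run of at least 12 bases found in the other sequence. ANKRD18A is at chr9:38620547-38620846 on the minus strand, and ANKRD18B at chr9:33524001-33524300 on the plus strand.
ANKRD18A: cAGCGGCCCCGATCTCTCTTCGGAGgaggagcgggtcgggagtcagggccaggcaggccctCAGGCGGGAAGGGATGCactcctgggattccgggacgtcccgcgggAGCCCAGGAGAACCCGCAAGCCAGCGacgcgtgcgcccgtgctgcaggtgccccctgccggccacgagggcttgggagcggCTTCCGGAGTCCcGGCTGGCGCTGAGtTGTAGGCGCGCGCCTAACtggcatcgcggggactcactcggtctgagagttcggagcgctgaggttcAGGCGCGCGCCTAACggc
ANKRD18B: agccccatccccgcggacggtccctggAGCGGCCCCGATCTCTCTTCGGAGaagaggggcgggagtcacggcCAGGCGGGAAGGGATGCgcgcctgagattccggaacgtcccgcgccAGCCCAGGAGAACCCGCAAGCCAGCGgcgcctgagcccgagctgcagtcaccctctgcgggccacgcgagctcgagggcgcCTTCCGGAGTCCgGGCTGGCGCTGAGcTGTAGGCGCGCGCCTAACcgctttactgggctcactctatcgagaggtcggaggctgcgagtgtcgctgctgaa
Capitals cover 125 of the 300 bases of ANKRD18A and 110 of the 300 of ANKRD18B. Aligned end to end, the pair was identical in 230 of 326 columns, or 70.6%. Of the 285 different stretches of 12 bases in the ANKRD18A sequence, 44 also occurred at the start of ANKRD18B, and no other of the 35115 RefSeq starts compared held more than 10. The peaks themselves are given without sequence, because no genome of build hg19 was used here.

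ANKRD18A carried many more peaks in the eCLIP libraries than in the inputs. The libraries listed 132 peaks in eCLIP replicate 1 and 57 in eCLIP replicate 2, against 8 peaks in input 1 and 6 in input 2. The number at the end of each peak's name, at least 3, was read as its reads, which the files do not state. By that number the peaks held 2918 and 569 reads in eCLIP, against 24 and 53 in input. The lists differ greatly in length, so the share of each library is the fairer measure.

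As a share of all reads in peaks, ANKRD18A took 9.49 per 10000 in eCLIP replicate 1 (95% Wilson interval 9.15 to 9.84) and 24.8 in eCLIP replicate 2 (22.8 to 26.9). The inputs gave it 0.963 (0.647 to 1.43) and 5.19 (3.97 to 6.79). Both eCLIP values lay above both input values, an order also shown by 25.0% of the 8914 genes in which the lists together held 10 peaks or more. Of these genes 8152 reached 10 peaks in eCLIP replicate 1 alone, so this background was drawn mostly through an eCLIP list. On the scale of log2(reads per 10000 + 0.5), the libraries averaged 3.99 ± 0.95 in eCLIP and 1.53 ± 1.39 in input (SD, n = 2 each), a difference of 2.46. Each eCLIP library lay above the input of its own number, as in 34.3% of genes, by 2.77 for number 1 and by 2.15 for number 2. The intervals cover counting error only, and the SDs show that the libraries of a group differed by far more than that.

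As a share of the number of peaks, the groups overlapped. ANKRD18A took 2.75 (2.32 to 3.27) and 13.6 (10.5 to 17.6) per 10000 peaks in eCLIP, against 1.27 (0.643 to 2.50) and 5.36 (2.45 to 11.7) in input. The value of eCLIP replicate 1 was thus below that of input 2, while each eCLIP library lay above the input of its own number, as 31.9% of genes did. Both eCLIP values lay above both inputs in 21.1% of genes by this measure, ANKRD18A not among them. On the log2 scale the means were 2.76 ± 1.50 in eCLIP and 1.69 ± 1.22 in input (SD, n = 2 each), a difference of 1.07 that is smaller than either SD. A share of peaks or reads also cannot tell more transcripts per cell from more cells that make the transcript.

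**Figure D1:**
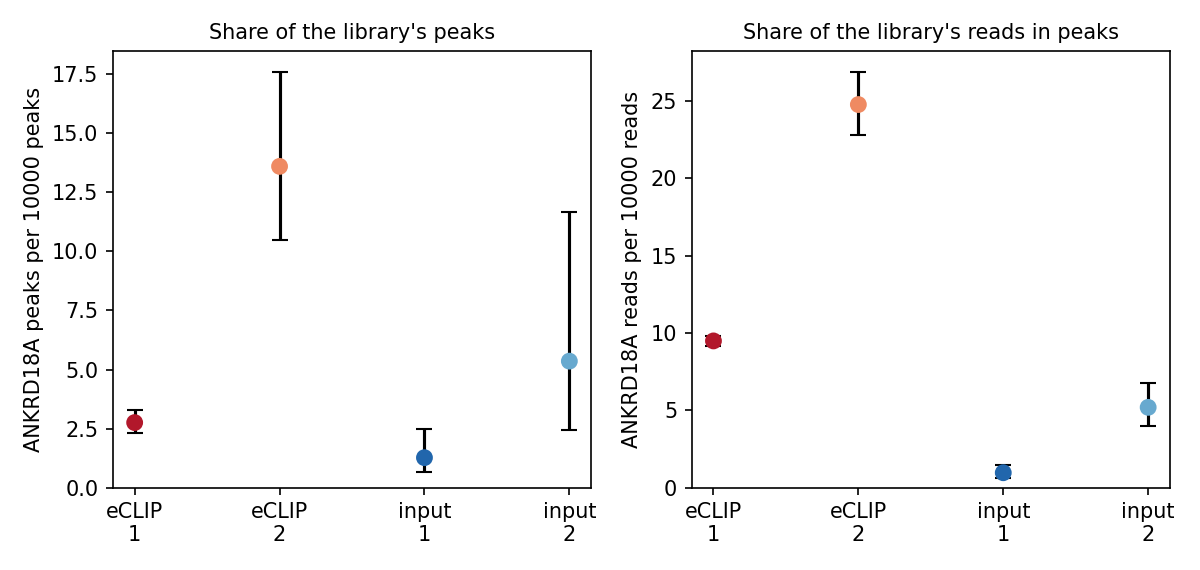
ANKRD18A as a share of each library's peaks (left, per 10000 peaks) and of its reads in peaks (right, per 10000 reads), 1 point per library with its 95% Wilson interval for counting error. By reads the eCLIP values of 9.49 and 24.8 lie above the input values of 0.963 and 5.19; by peaks eCLIP replicate 1, at 2.75, lies below input 2, at 5.36.

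The ANKRD18A peaks of eCLIP replicate 1 were deep ones. They averaged 22.1 reads, against 6.42 over all peaks of that library, and among the 8152 genes with at least 10 peaks there, 120 had a higher average and the median gene had 4.57. Only 1 of its 132 peaks (0.758%) rested on the minimum of 3 reads, where 32.0% of the library's peaks did. In eCLIP replicate 2 the mean was 9.98 reads against 5.48 over the library, with a median of 4. Without 4 peaks at the strong sites described below, the other 53 averaged 5.75. There 18 of 57 peaks (31.6%) had 3 reads, where 50.1% of the library's peaks did. Input 2 averaged 8.83 reads in the gene and 9.11 over the library. All 8 peaks of input 1 had 3 reads.

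By reads, 71 genes ranked above ANKRD18A in eCLIP replicate 1 and 16 did in eCLIP replicate 2. In the inputs 2809 genes ranked above it in input 1 and 135 in input 2. By the authors' p-values, the peaks of eCLIP replicate 1 stood out from their library. A p-value of at most 0.001 was given to 122 of them (92.4%), where 23.3% of all peaks in that library had one. In eCLIP replicate 2 it was given to 22 (38.6%), where 21.9% of all peaks had one. In input 1 it was given to 0 of 8 peaks, where 12.6% of all peaks had one, and in input 2 to 3 of 6, where 28.7% did.

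Nearly all of the signal sat in 1 block at the downstream end. Peaks of the 4 libraries were pooled and parted wherever more than 1000 bases separated neighbours, which gave 6 clusters. The large one ran from 38542628 to 38566465, 23838 bases long. It held 121 of the 132 peaks and 97.4% of the reads of eCLIP replicate 1, and 56 of 57 peaks and 99.5% of the reads of eCLIP replicate 2. In input 1 it held 6 of 8 peaks, and in input 2 all 6. Measured from the 5′-most peak base at 38620424, the block lay 53959 to 77796 bases downstream.

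The other 5 clusters were slight. At the 5′ end, from 38619671 to 38620424, eCLIP replicate 1 had 2 peaks with 12 reads in all and eCLIP replicate 2 had 1 peak with 3 reads, against no peak in either input. This was the only cluster besides the large block in which both eCLIP libraries had a peak. A pair of touching input 1 peaks of 3 reads each stood alone at 38607471 to 38607490. In eCLIP replicate 1 alone there were 3 peaks with 15 reads from 38571163 to 38572045, 5 peaks with 46 reads from 38568095 to 38570127, and 1 peak of 3 reads at 38540626 to 38540641. The widest stretch without a peak in eCLIP replicate 1 was 47625 bases, between the 5′ end and the cluster at 38571163.

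**Figure D2:**
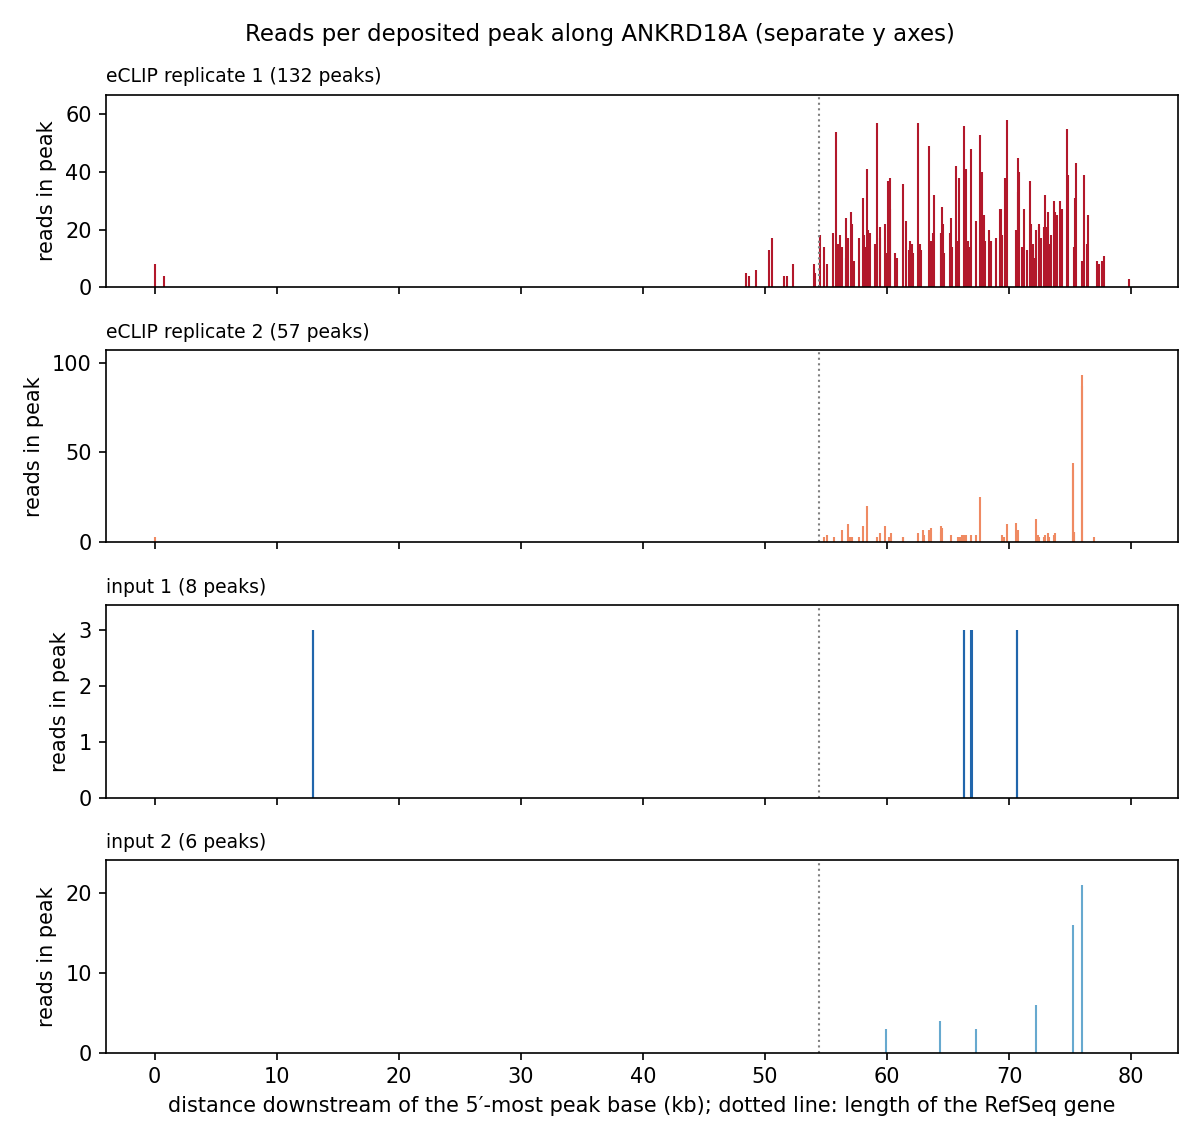
Reads in each ANKRD18A peak (y axis, linear and separate for each library) against the distance of the peak's middle from the 5′-most peak base (x axis, kb, transcript direction left to right). The dotted line marks 54446 bases, the length of the RefSeq gene. Most lines in all 4 libraries stand to its right, and eCLIP replicate 2 and input 2 have their tallest lines at the same place near 76 kb.

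Nearly all of the block lay farther from the 5′ end than the RefSeq gene is long. RefSeq gives ANKRD18A a length of 54446 bases on GRCh38.p14, and 120 of 132 peaks of eCLIP replicate 1 and 56 of 57 of eCLIP replicate 2 began farther than that from the 5′-most peak base. These peaks held 97.1% and 99.5% of the gene's reads. In the inputs 6 of 8 and 6 of 6 peaks did so. The peaks within that length held 86 and 3 reads in eCLIP, against 6 and 0 in input. Counted on them alone, the gene took 0.280 and 0.131 per 10000 reads in eCLIP against 0.241 and 0 in input, and the groups overlapped. Next to ANKRD18A on its downstream side, on the same strand, RefSeq places FAM95C, a long noncoding RNA gene of 4806 bases, after a gap of 20778 bases. The deposited lists give nearly all minus-strand peaks of this stretch to 1 identifier. The 2 strong sites described below began 75944 and 75191 bases from the 5′-most peak base, farther than the RefSeq length of ANKRD18A. Whether they belong to FAM95C was not tested. The comparison rests on lengths and order in another build, and which transcript the reads came from was not tested.

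Within the block the peaks of eCLIP replicate 1 followed each other closely. Its 121 peaks covered 4594 bases, 19.3% of the block, with a median of 117 bases and at most 694 bases between neighbours. Those of eCLIP replicate 2 covered 1880 bases, or 7.89%, and those of the inputs 84 bases (0.352%) and 261 bases (1.09%). Peaks were also sorted into windows of 2 kb by their 5′ edge, and the reads of eCLIP replicate 1 were spread over many of them. Each of the 11 windows from 54 to 76 kb downstream of the 5′-most base held between 4.56% and 11.7% of the gene's reads in that library, with the highest share at 66 to 68 kb.

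In eCLIP replicate 2 a single window stood out. The window from 74 to 76 kb held 276 of its reads, or 48.5%, where eCLIP replicate 1 had 248 reads, or 8.50%. Input 2 had 37 of its 53 reads there, or 69.8%, and input 1 had none. The next highest window of eCLIP replicate 2 held 7.91%.

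**Figure D3:**
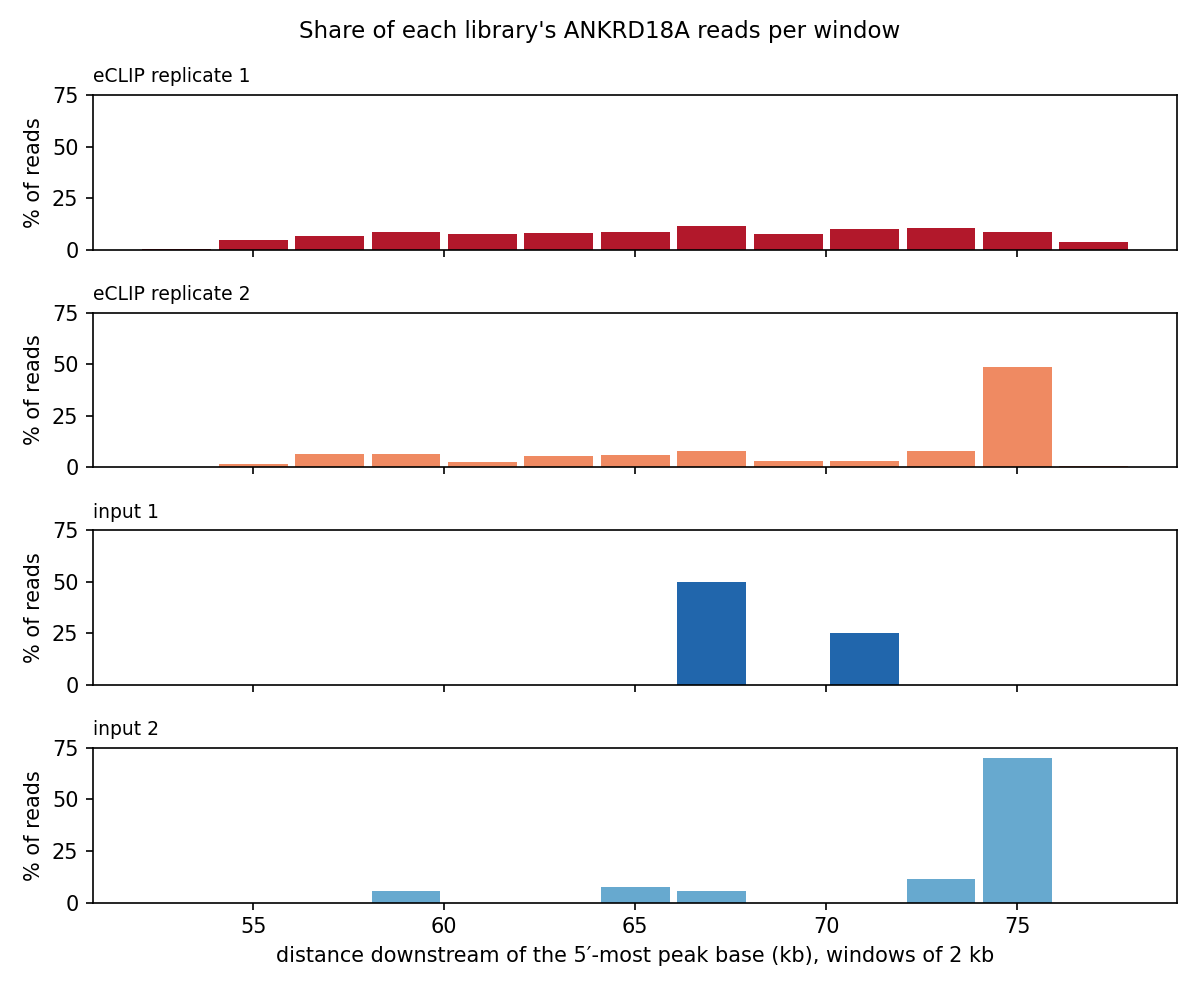
Percent of each library's ANKRD18A reads (y axis) in windows of 2 kb across the large block (x axis, kb downstream of the 5′-most peak base), 1 panel per library. eCLIP replicate 1 is spread from 54 to 76 kb with 4.56% to 11.7% per window, while the window from 74 to 76 kb holds 48.5% of the reads of eCLIP replicate 2 and 69.8% of those of input 2.

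That window contained the 2 strongest input sites listed under the gene, and eCLIP replicate 2 had its strongest peaks on both. At the first, eCLIP replicate 2 had touching peaks of 87 and 93 reads that ran from 38544436 to 38544485, with deposited p-values of 8.42e-129 and 2.12e-136, and eCLIP replicate 1 had a peak of only 9 reads, from 38544453 to 38544468. Input 2 had a peak of 21 reads there, from 38544433 to 38544480, its strongest in the gene, and input 1 had none. At the second site, from 38545174 to 38545233, eCLIP replicate 2 had touching peaks of 40 and 44 reads and eCLIP replicate 1 had no peak, against 16 reads in input 2 and no peak in input 1. Touching peaks may count the same reads more than once.

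Together these sites held 264 reads, or 46.4% of the gene's reads, in eCLIP replicate 2, and 9 reads, or 0.308%, in eCLIP replicate 1. In input 2 they held 37 reads and in input 1 none. The libraries numbered 2 were thus alike at these 2 sites, whether eCLIP or input, and unlike the libraries numbered 1. The sites were picked for their reads in input 2, so its high value there was fixed by the choice. At the other input 2 sites, unscaled reads in eCLIP replicates 1 and 2 were 20 and 13, 23 and 4, 0 and 0, and 22 and 9. Without both sites the gene took 9.46 per 10000 reads in the first eCLIP library and 13.3 in the second. The inputs then gave it 0.963 for input 1 and 1.57 for input 2, so both eCLIP libraries still lay above both inputs. Because the sites were picked by their reads in input 2, leaving them out had to lower that library. The kept order was thus partly set by the choice of sites and is no check.

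The inputs placed 14 peaks in ANKRD18A, which formed 10 sites once touching peaks were joined. Input 1 had 4 of the sites, each a pair of touching peaks of 3 reads, so its 8 peaks were 4 regions. Input 2 had 6 sites, and none was shared between the inputs. Over all genes 3.43% of input 1 peaks and 18.4% of input 2 peaks met the other input, so a count of 0 in so few peaks is near the background. An eCLIP peak overlapped 8 of the 10. As all 8 peaks of input 1 had 3 reads, none was the strongest. On its pair from 38554133 to 38554149 lay an eCLIP replicate 1 peak of 56 reads and an eCLIP replicate 2 peak of 4. On its pair from 38553504 to 38553541 lay an eCLIP replicate 1 peak of 48 reads.

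The peaks that led to the choice of the gene are described next, and nothing is read from their number. Of the 132 peaks of eCLIP replicate 1, 40 (30.3%) shared at least 1 base with an eCLIP replicate 2 peak while no input peak overlapped them, where 2.52% of all peaks of that library did so. Of the 3903 genes with such a peak, 7 had more. The 40 ran from 38545078 to 38620424 and held 1107 reads in eCLIP replicate 1, or 37.9% of the gene's reads there. They had between 8 and 58 reads in eCLIP replicate 1, with a median of 23, where the other 92 peaks had a median of 16. In eCLIP replicate 2 the matching peaks had between 3 and 25 reads, with a median of 5, and 24 of the 40 had at most 5. Some neighbours among the 40 matched the same eCLIP replicate 2 peak, which was then counted for each. These shared peaks were 38549706 to 38549737, with 7 reads, and 38560991 to 38561032, with 5.

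The strongest of the 40 by reads in both eCLIP libraries spanned 38552804 to 38552850 and had 53 reads in the first eCLIP library and 25 in the second. It was followed by the peak at 38550602 to 38550681, with 58 and 10 reads, and the peak at 38557859 to 38557904, with 57 and 5 reads. The peak at 38562067 to 38562127 had 41 and 20 reads, and the peak at 38561240 to 38561333 had 57 and 3. All 5 lay in the large block, between 58297 and 69743 bases from the 5′-most base. Their deposited p-values ran from 3.62e-48 to 1.87e-26 in eCLIP replicate 1 and from 1.80e-21 to 0.0409 in eCLIP replicate 2, so the order of strength was not the same in both. Over the 40 peaks, reads in the eCLIP libraries correlated weakly (Pearson r = 0.35, Spearman rho = 0.22). These are sites of 1 gene, which share their libraries and depth, and some share an eCLIP replicate 2 peak.

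The paired peaks had to overlap to be counted, and they lay no closer to each other than such pairs elsewhere. The point that the lists mark inside each peak differed by a median of 7 bases between the eCLIP libraries over the 40 pairs, and by at most 10 bases in 26 of them (65.0%). Over all 12067 such peaks of the series the median was 5 bases and 73.0% differed by at most 10 bases. Counting input-met peaks too, 46 peaks of eCLIP replicate 1 were overlapped by one of eCLIP replicate 2, and eCLIP replicate 1 had more reads at 45 of them. These reads were not scaled to the lists, which held 3075352 reads in peaks for eCLIP replicate 1 and 229647 for eCLIP replicate 2. The count of 45 therefore does not compare shares of the libraries. The exception began at 38544453, where the first eCLIP library had 9 reads and the peaks of the second over it had 180.

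**Figure D4:**
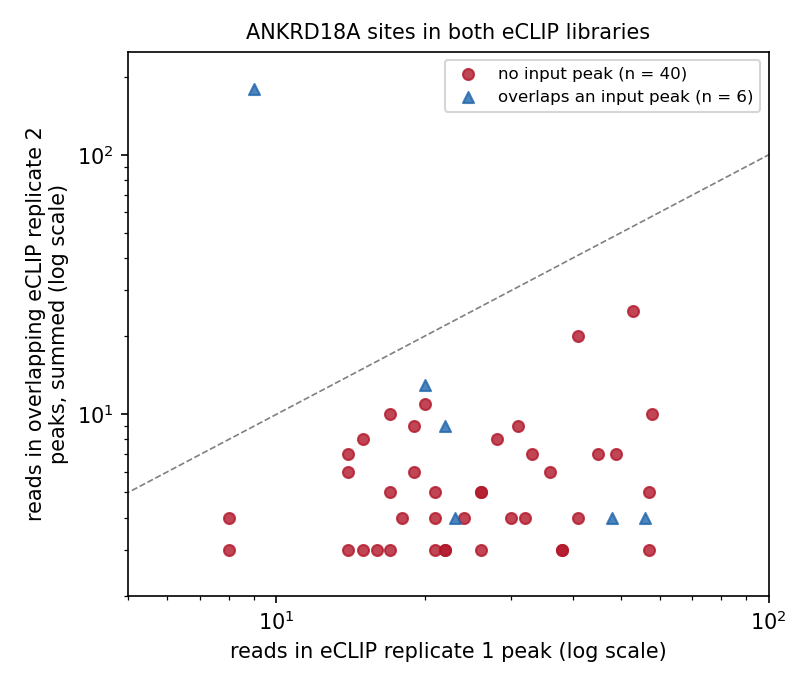
Reads at the 46 ANKRD18A sites where peaks of both eCLIP libraries overlapped, eCLIP replicate 1 on the x axis and the summed overlapping peaks of eCLIP replicate 2 on the y axis (both log scales), with triangles for the 6 sites that also overlap an input peak; the dashed line marks equal reads. The site with 9 and 180 reads is the 1 above the line. Reads are not scaled to the size of the lists, and neighbouring sites can share an eCLIP replicate 2 peak.

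In the other direction, 46 of the 57 peaks of eCLIP replicate 2 (80.7%) overlapped a peak of eCLIP replicate 1, where 33.1% of all peaks of eCLIP replicate 2 did. The gene was chosen for peaks held by both eCLIP libraries, so a high share was built into the choice and nothing is read from it. The gene's peaks in eCLIP replicate 1 took up 19.3% of the block, and the part of this dense cover in the overlap was not tested. Peaks of the inputs met those of eCLIP replicate 1 often as well, in 5 of 8 cases for input 1 and in 4 of 6 for input 2. Over all genes those shares were 12.8% and 25.1%.

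On the opposite strand there was nothing within the gene. The 4 lists held 0 plus-strand peaks between the first and last ANKRD18A peak, and 0 of the 132 peaks of eCLIP replicate 1 were overlapped by a peak on the other strand, against 0.0603% of all its peaks, so a count of 0 is near the background. Same-strand peaks of other identifiers were 4, all in eCLIP replicate 1. ENSG00000225345.3 had 3 peaks with 21 reads from 38566343 to 38568167, and ENSG00000250989.1 had 1 peak with 10 reads from 38543240 to 38543269. All 4 overlapped ANKRD18A peaks. Of these, 1 peak of ENSG00000225345.3 had the very same interval, so its reads are listed under both identifiers. The others had different intervals, and how many of their reads are listed under both is not known.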

How the data were processed

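Per the submitters' processing notes, the tools were cutadapt, STAR and SAMtools and the build was hg19. Not given in the sources used here: versions, peak caller, settings, gene annotation and the treatment of reads with several matches. One list for each library was deposited by the authors, each peak with an interval, strand, p-value (at most 0.05) and score. The deposited score was the whole part of 10 times the -log10 p-value, capped at 1000, wherever that p-value was above 0. Each deposited name holds a gene identifier, a peak number and, as another value, a whole number of at least 3, read here as the reads in the peak.

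With Python 3.11.15, pandas 2.3.3 and scipy 1.17.1, peaks of ENSG00000180071 were taken from all 4 lists. Same-strand peaks with 1 or more bases in common counted as overlapping. Clusters were parted at gaps above 1000 bases. Shares per 10000 peaks or reads carry 95% Wilson intervals, and their log2 used a pseudocount of 0.5. The background was the 8914 genes with at least 10 peaks. The functions were tested on simulated data. Singly named peaks were the 5 reproducible ones with most reads over both eCLIP libraries and the strongest of each input. The sites of input 2 with over 10 reads, and the eCLIP peaks on them, were singled out after their values were seen. No test across libraries was made. The gene and the choices were made with earlier results of these data known.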

Additional observations from a re-analysis of the deposited data

How the results depend on the processing

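Nothing in the labels says that a shared number pairs the libraries, and no paired test was made. With the replicate number as a block, the mean of the differences within a number was 2.46 for reads and 1.07 for peaks, equal to the unpaired values by construction. For the read share the difference of the log2 means, eCLIP minus input, was above 0 in every alternative run, from 0.20 to 4.37 around 2.46. The low end, 0.20, came from leaving out peaks beyond the RefSeq gene length, which leaves 12 and 1 peaks in eCLIP and puts eCLIP replicate 2 below input 1. In that run the groups overlapped, and input 2 had 0 reads, so its value was the pseudocount alone. The run was chosen after seeing the data, like leaving out the 2 strongest input 2 sites, which gave 2.75. Leaving out peaks beyond the RefSeq gene length took the peak share to 0.22, with 0.250 and 0.239 per 10000 in eCLIP against 0.317 and 0 in input. The read share was 3.92 at a p-value limit of 0.001 and 4.37 in lists of equal length (added later). Lists of equal length kept the peaks of lowest p-value in each library, so they were not a random thinning. In both of these runs input 1 had 0 peaks left, so its value was the pseudocount alone. Its 8 peaks had deposited p-values from 0.0192 to 0.0203, while 92.4% of the gene's peaks in eCLIP replicate 1 had at most 0.001. Both runs select on these p-values, so the larger differences are no check, for reads or for peaks. The peak share, 1.07, was 2.92 at that limit and 4.39 in lists of equal length, both with 0 peaks left in input 1. Leaving out 1 library gave 0.02 (without eCLIP replicate 2) to 2.13 (without eCLIP replicate 1) for peaks, with 0.21 without input 1, and 1.48 to 3.44 for reads. The 40 peaks found in both eCLIP libraries and neither input became 16 at the p-value limit of 0.001 and 10 in lists of equal length, and 42 or 44 without an input. The 2 clusters held by both eCLIP libraries became 1 with peaks of more than 3 reads and 1 at the p-value limit of 0.001, the large block in each case, and 3 with a gap of 500 bases. The opposite-strand count was 0 in every setting run. The length of the lists limits all counts of peaks, and 2 libraries a group limit every mean.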

Other observations

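Just beyond the 5′ end of ANKRD18A, 565 bases from its 5′-most peak base, peaks of ENSG00000204860.4 began on the plus strand, from 38620990 to 38623111. eCLIP replicate 1 had 7 of them with 29 reads and eCLIP replicate 2 had 0, against 3 with 10 reads in input 1 and 0 in input 2. Within 200 kb of the span, the only other identifier outside it was ENSG00000137124.6 on the plus strand, with 1 peak of 3 reads in input 1.

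The genes whose shares of peaks were closest to those of ANKRD18A over the 4 libraries, by Euclidean distance of log2(peaks per 10000 + 0.5) among 8914 genes, were ENSG00000173933.15 and ENSG00000060339.9. ENSG00000173933.15, on the plus strand of chromosome 11 with peaks from 66384610 to 66431681, lay at a distance of 0.44 and had 2.80 and 13.4 peaks per 10000 in eCLIP, against 1.90 and 5.36 in input. ENSG00000060339.9, a plus-strand gene of chromosome 10 with peaks from 70481130 to 70552055, lay at 0.48 and had 2.90 and 12.2 in eCLIP, against 1.59 and 7.14 in input. By reads per 10000 the first had 6.37 and 15.2 in eCLIP against 1.85 and 1.86 in input, and the second 4.14 and 10.0 against 1.56 and 2.64, where ANKRD18A had 9.49 and 24.8 against 0.963 and 5.19.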
